A study of Mus musculus with 15 samples.

Results

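The immediate early response genes examined were *Fos*, *Fosb*, *Jun*, *Junb*, *Egr1*, *Egr2*, *Ier2*, *Atf3*, *Nr4a1* and *Dusp1*. They were taken by symbol from the count tables of all 15 libraries, in which these 10 are among 24982 gene symbols, and all 10 passed the filter on low counts that left 14121 genes for testing. RNA-Seq was done on whole aortas of 15 WT male C57BL/6 mice (C57BL/6J in the study's text) aged 10 months, 1 aorta per library and 5 mice per group. The control group had a sham operation, the second group had an orchiectomy, and the third had an orchiectomy and a pellet of dihydrotestosterone (DHT), an androgen that aromatase cannot turn into estrogen. After 2 weeks of recovery all 3 groups received Aldo-salt for 7 days, that is aldosterone at 200 ug/kg/d by osmotic minipump and drinking water with 0.9% NaCl and 0.2% KCl. No group without Aldo-salt was analysed here, so the values show the effect of androgen state under Aldo-salt and not the effect of Aldo-salt. In whole aortas, fewer cells of a type and less RNA per cell cannot be told apart. Each mouse gave 1 library, so *P* values set group differences against the spread between mice.

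Immediate early genes are transcribed from promoters that are already open when a cell receives a signal such as stretch, a growth factor, a cytokine or stress, and they need no new protein to be switched on. MAP kinases and calcium or cAMP signals act on SRF, ternary complex factors, CREB and ATF proteins already bound at these promoters, and the mRNAs are short-lived, so their level follows recent signals. Fos and Jun proteins pair as the transcription factor AP-1, EGR proteins are zinc finger factors, NR4A1 is an orphan nuclear receptor, and DUSP1 is a phosphatase that switches MAP kinases off. In the arterial wall, smooth muscle, endothelial cells and leukocytes all use them. The hour of harvest and the time between death and RNAlater are not given in the labels.

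The tissue label was checked against cell type markers. All 6 smooth muscle markers were tested and together held 9941 to 23430 CPM (counts scaled to library size with TMM factors), endothelial markers 511 to 1110 CPM and brown fat markers 820 to 4107 CPM, and the hemoglobin genes *Hba-a1*, *Hba-a2*, *Hbb-bs* and *Hbb-bt* were listed at 0 in every library, while the erythroid marker *Alas2* read 4.68 to 75.1 CPM. Gene reads ranged from 8268957 to 13816864 per library. One library stood apart. Orchiectomized replicate 2 had the lowest smooth muscle sum of all, 9941 CPM, and the highest sums of macrophage (1279 CPM), B cell (149 CPM), neutrophil (28.3 CPM), mesothelial (350.1 CPM), endothelial (1110 CPM) and Schwann cell (479.7 CPM) markers. Values without it are given beside the results that it moves most.

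Per length, using the exons of GENCODE M21 (GRCm38, the assembly that mm10 names), *Jun* was the most abundant member at 75.6 ± 25.8 RPKM (CPM per kilobase of exon; SD, n = 15), followed by *Dusp1* at 61.5 ± 16.4 RPKM. *Ier2*, *Nr4a1* and *Atf3* came next with 27.7 ± 8.55, 25.8 ± 17.0 and 25.3 ± 14.8 RPKM. *Egr1*, *Junb* and *Fos* had 16.2 ± 6.69, 15.8 ± 8.10 and 13.7 ± 9.34 RPKM, *Fosb* had 3.45 ± 1.77 RPKM, and *Egr2* was the lowest at 1.23 ± 0.763 RPKM. *Dusp1* and *Ier2* were the sole neighbours in this order whose means lay further apart than their SDs together, and even their ranges over the 15 libraries overlapped. The rarest member, *Egr2*, was measured on 17 to 148 reads per library, and the others on 78 reads or more. Comparisons between groups below are on CPM, within a gene.

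The promoters of 5 members are shown because these genes carry the results: *Fosb*, *Jun* and *Atf3* varied together from mouse to mouse, and *Egr2* and *Nr4a1* had the smallest *P* values after orchiectomy. Each window is the reference sequence of RefSeq (GRCm38.p6), 5′ to 3′ on the strand of the gene, with 250 bases before the first base of the transcript and 50 after. Capitals mark CRE half-sites (TGACG on either strand, the core bound by CREB and ATF proteins), the CRE-like AP-1 site TGACATCA and the CArG box, the site of SRF. *Egr2* has 5 windows, and the one shown is number 3 by position. They do not all hold the same sites.
Fosb promoter, chr7:19309996-19310295, minus strand: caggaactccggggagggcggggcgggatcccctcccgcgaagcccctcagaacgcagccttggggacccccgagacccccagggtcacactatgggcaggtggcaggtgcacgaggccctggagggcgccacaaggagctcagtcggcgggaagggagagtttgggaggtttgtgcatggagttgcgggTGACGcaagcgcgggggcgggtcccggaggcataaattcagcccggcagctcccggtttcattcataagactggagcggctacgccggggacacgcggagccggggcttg
Jun promoter, chr4:95052173-95052472, minus strand: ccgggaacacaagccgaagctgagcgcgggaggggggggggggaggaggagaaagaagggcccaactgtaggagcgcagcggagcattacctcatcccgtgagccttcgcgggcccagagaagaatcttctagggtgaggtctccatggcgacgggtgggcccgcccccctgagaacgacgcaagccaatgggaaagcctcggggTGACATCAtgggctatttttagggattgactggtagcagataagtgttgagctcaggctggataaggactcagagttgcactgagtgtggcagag
Atf3 promoter, chr1:191183284-191183583, minus strand: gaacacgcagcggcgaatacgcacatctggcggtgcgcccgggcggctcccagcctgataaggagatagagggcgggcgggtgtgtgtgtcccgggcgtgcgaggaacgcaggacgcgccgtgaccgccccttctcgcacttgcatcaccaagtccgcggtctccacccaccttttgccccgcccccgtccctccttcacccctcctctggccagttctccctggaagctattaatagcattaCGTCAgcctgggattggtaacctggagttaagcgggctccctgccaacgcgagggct
Egr2 promoter, chr10:67537619-67537918, plus strand: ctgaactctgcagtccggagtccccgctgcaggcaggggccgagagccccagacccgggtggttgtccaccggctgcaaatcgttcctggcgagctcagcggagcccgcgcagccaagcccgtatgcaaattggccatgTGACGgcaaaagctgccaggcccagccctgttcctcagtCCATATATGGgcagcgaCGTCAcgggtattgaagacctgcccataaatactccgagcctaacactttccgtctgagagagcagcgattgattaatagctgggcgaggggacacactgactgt
Nr4a1 promoter, chr15:101266596-101266895, plus strand: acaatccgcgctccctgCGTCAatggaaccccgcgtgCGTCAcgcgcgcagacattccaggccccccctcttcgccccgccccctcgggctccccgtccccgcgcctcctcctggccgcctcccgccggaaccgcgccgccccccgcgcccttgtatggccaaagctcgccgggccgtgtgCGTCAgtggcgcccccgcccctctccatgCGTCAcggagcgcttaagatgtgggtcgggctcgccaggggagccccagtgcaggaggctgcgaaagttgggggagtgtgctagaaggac

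RefSeq windows were found for 8 of the 10 members and were searched on both strands. TGACG stood in a window of 7 of these 8 members, against 20.8% of all 32841 promoter windows. A member counted if any of its windows matched, and *Egr2* had 5 windows, so the units differ. *Nr4a1* held 4 copies, at -233, -213, -69 and -40 bases (first base of each match, with the transcript start as 0). *Jun*, the exception, held TGACATCA at -45, which 3.62% of all windows hold. The CArG box stood in the shown window of *Egr2* at -72 and in 1.63% of all windows. The full CRE, TGACGTCA, which contains TGACG, stood in the window of *Dusp1* and in 1.79% of all windows. The AP-1 site TGANTCA (7.81% of windows), the steroid receptor half-site AGAACA (19%) and the full steroid receptor element, an inverted repeat of it (0.00913%), stood in none of the 8 members' windows. These are matches of letters in short windows and do not show that a factor was bound.

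Values of every aorta showed a wide spread within groups. *Fos* (chr12:85473890-85477273), the partner of Jun in AP-1, read 54.1, 43.7, 13.3, 42.1 and 12.7 CPM in the control mice. It read 32.7, 56.7, 12.9, 11.96 and 85.5 CPM in the orchiectomized mice, and 22.9, 46.1, 19.5, 13.3 and 15.6 CPM with DHT. Low aortas, from 11.96 to 13.3 CPM, were present in each group, and the highest was an orchiectomized mouse. The groups overlapped, with 2 orchiectomized aortas above and 1 below every control. The gap between the highest and lowest aorta was 7.15-fold, the widest among the members.

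*Fosb* (chr7:19302696-19310051), a Fos relative known for building up under repeated stimulation, read 17.9, 34.6, 11.6, 20.9 and 14.1 CPM in control, 39.8, 46.0, 13.99, 16.5 and 23.5 CPM in orchiectomized, and 12.8, 24.3, 26.2, 13.2 and 8.07 CPM in DHT-treated mice. Orchiectomized replicates 1 and 2 were above every other aorta, and the remaining 13 were intermixed. *Jun* (chr4:95049034-95052222), the main partner of Fos, read 204, 366, 188, 217 and 171 CPM in control, 329, 359, 199.8, 154 and 233 CPM in orchiectomized, and 162, 392, 275, 209 and 155 CPM in DHT-treated mice. Each group had its own high aorta, at 366, 359 and 392 CPM, and its own low one, at 171, 154 and 155 CPM. *Atf3* (chr1:191170296-191218039), a stress-induced factor of the ATF family, read 40.8, 91.3, 32.5, 41.6 and 25.5 CPM in control, 84.6, 108.8, 22.8, 44.7 and 43.3 CPM in orchiectomized, and 25.9, 96.7, 100.4, 36.3 and 22.8 CPM in DHT-treated mice. Its values fell into a low set and a high set inside every group: 5 of the 15 aortas were at 84.6 CPM or more, 1 control, 2 orchiectomized and 2 DHT-treated, and the other 10 were at 44.7 CPM or less.

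*Junb* (chr8:84974484-84978718), a Jun relative that often opposes Jun, read 31.5, 43.5, 27.9, 28.9 and 27.2 CPM in control, 35.6, 100.4, 26.3, 32.9 and 37.0 CPM in orchiectomized, and 25.996, 28.4, 30.6, 26.04 and 43.2 CPM in DHT-treated mice. One aorta, orchiectomized replicate 2, was more than 2-fold above every other, and the remaining 14 lay between 25.996 and 43.5 CPM. *Junb* overlaps *Prdx2* on the opposite strand, and whether reads were counted by strand is not given in the sources used here.

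*Egr1*, the best known EGR factor of the vessel wall, read 74.3, 73.2, 34.1, 94.9 and 49.2 CPM in control, 97.2, 129.6, 59.4, 49.3 and 131 CPM in orchiectomized, and 55.6, 89.2, 57.3, 52.1 and 43.0 CPM in DHT-treated mice. The highest 3 orchiectomized aortas were above every control and DHT-treated aorta, and the other orchiectomized ones lay inside both ranges. *Egr2* (chr10:67535475-67542188), an EGR factor with roles in Schwann cells and in T cell tolerance, read 3.26, 4.12, 2.19, 4.60 and 3.01 CPM in control, 3.98, 13.1, 4.37, 4.81 and 3.83 CPM in orchiectomized, and 2.99, 3.24, 3.46, 2.10 and 3.52 CPM in DHT-treated mice. All 5 orchiectomized aortas were above all 5 DHT-treated ones, and *Egr2* was the sole member with such a gap in any comparison. Among all tested genes, the groups did not overlap for 1.51% when orchiectomized and control mice were compared, for 6.43% with and without DHT, and for 3.58% when DHT-treated and control mice were compared. The step between the nearest aortas of the groups was small, from 3.52 to 3.83 CPM, and orchiectomized replicate 2 was far above the rest.

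*Nr4a1* (chr15:101254269-101274795), induced in T cells by antigen receptor signals and in macrophages and vessel wall cells by many stimuli, read 71.5, 74.3, 73.3, 44.7 and 59.9 CPM in control, 113.9, 292, 60.6, 94.1 and 61.0 CPM in orchiectomized, and 48.4, 104, 106, 58.6 and 93.0 CPM in DHT-treated mice. Orchiectomized replicate 2 was again far above the rest. Both groups of orchiectomized mice, with and without DHT, had 3 aortas above the highest control. *Ier2* (chr8:84661331-84662852), an early response protein of the nucleus, ranged from 30.8 to 44.9 CPM in control, from 24.8 to 78.6 CPM in orchiectomized and from 32.3 to 48.5 CPM in DHT-treated mice. *Dusp1*, the MAP kinase phosphatase, ranged from 134 to 258 CPM in control, from 135 to 277 CPM in orchiectomized and from 124 to 257 CPM in DHT-treated mice. *Dusp1* had nearly the same range in all 3 groups and the smallest gap between highest and lowest aorta, 2.23-fold. Its annotated span (chr17:26505590-26562128) also holds *Ergic1* on the other strand, and the strand limit given for *Junb* applies to it.

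**Figure D1:**
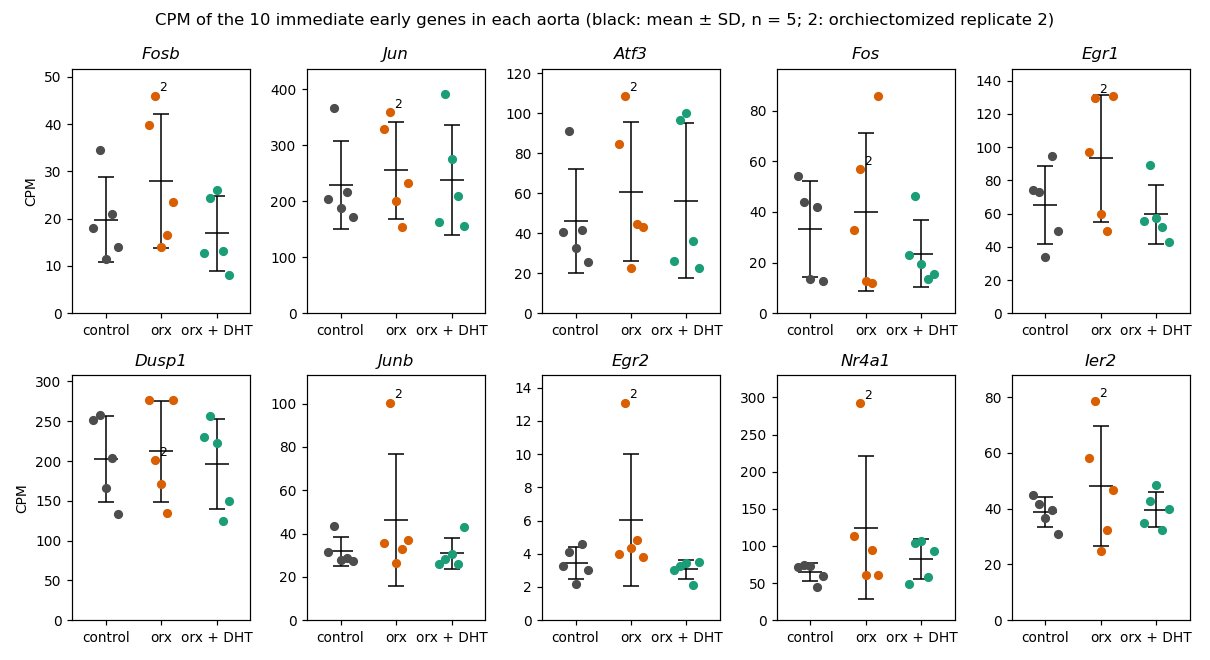
CPM (vertical axes, linear, from 0) of each of the 10 genes in each aorta, by group on the horizontal axes (orx: orchiectomized), with the mean and SD of 5 mice in black and orchiectomized replicate 2 marked 2. That aorta sits far above the rest for *Junb* (100.4 CPM), *Egr2* (13.1 CPM) and *Nr4a1* (292 CPM), while *Jun*, *Atf3*, *Fos* and *Dusp1* have high and low aortas in each group.

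The comparison of orchiectomized with control mice asked what the loss of gonadal androgen does under Aldo-salt. No member passed the threshold of an unadjusted *P* under 0.01 in edgeR's quasi-likelihood test, which 3.22% of all tested genes passed. *Egr2* and *Nr4a1* had an unadjusted *P* under 0.05, as 12% of tested genes did, and both were higher after orchiectomy, as were 7.39% of tested genes at that threshold. DESeq2 also called 0 of 10 at 0.01, and 2 at 0.05. Limma voom was fitted with sample quality weights, so libraries counted unequally. It called 0 and 1, the 1 being *Egr1* (unadjusted *P* = 0.0467). With voom *Nr4a1* and *Egr2* had log2 fold changes of 0.23 and 0.34 (unadjusted *P* = 0.406 and 0.131), against 0.94 and 0.80 with edgeR. The exact permutation test on log2 CPM (two-sided) gave *P* = 0.111 for *Nr4a1* and 0.0794 for *Egr2*, and for *Egr2* the edgeR unadjusted *P* was 0.0633 with only the compared groups in the fit and 0.0511 with the replicate number as a block. *Nr4a1* averaged 64.7 ± 12.6 CPM in control and 124 ± 96.4 CPM in orchiectomized mice (SD, n = 5 each), a log2 fold change of 0.94 (95% interval 0.12 to 1.76, edgeR unadjusted *P* = 0.0269, adjusted *P* = 0.371). *Egr2* averaged 3.44 ± 0.948 and 6.02 ± 3.98 CPM, a log2 fold change of 0.80 (95% interval 0.08 to 1.52, edgeR unadjusted *P* = 0.0316, adjusted *P* = 0.379). In both, the groups overlapped, with 3 and 2 orchiectomized aortas above the highest control.

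The intervals of the other members included 0. *Junb* had a log2 fold change of 0.55 (95% interval -0.11 to 1.20) and *Egr1* one of 0.52 (-0.14 to 1.18). *Fosb*, *Atf3*, *Ier2* and *Fos* had 0.49, 0.39, 0.31 and 0.27, *Jun* 0.15 and *Dusp1* 0.06. These intervals reach from below 0 to more than 2-fold higher for *Fosb*, *Junb*, *Egr1*, *Atf3* and *Fos*, so the data do not show that these genes were alike in both groups. All 10 estimates were above 0, with a median of 0.44 (0.22 with limma voom), whereas 56.8% of all tested genes were above 0 and their median was 0.04. The members are not independent of each other, since they varied together between mice.

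Leaving out orchiectomized replicate 2 gave the lowest estimate of 7 of the 10 members. The exceptions were *Fos*, lowest without orchiectomized replicate 5 (-0.22), *Egr1*, lowest without control replicate 3 (0.32), and *Dusp1*, lowest without orchiectomized replicate 1 (-0.08). Without control replicate 2, *Fosb*, *Atf3* and *Jun* had their highest estimates, 0.79, 0.79 and 0.38. Orchiectomized replicate 2 was the highest of all 15 aortas for 6 of the 10 members (*Fosb*, *Junb*, *Egr2*, *Ier2*, *Atf3* and *Nr4a1*), as it was for 22.8% of all tested genes, and above every control for 8 of 10, as for 34.2% of tested genes. Without it, *Nr4a1* had a log2 fold change of 0.33 and *Egr2* one of 0.29, neither with an unadjusted *P* under 0.05 (0.208 and 0.224, edgeR). *Junb* had 0.04, *Ier2* 0.04, *Atf3* 0.05 and *Jun* -0.02. *Egr1* held the largest remaining estimate, 0.35. The median of the members was then 0.07, and 9 of 10 estimates were above 0 against 52.6% of all tested genes.

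Marker levels of several cell types differed in this comparison. By edgeR at an unadjusted *P* under 0.01, all 5 B cell markers, 5 of the 6 T cell markers tested and both neutrophil markers tested (of 6) were higher after orchiectomy. Their sums were 3.28 to 7.93 CPM in control and 6.24 to 149 CPM in orchiectomized mice for B cells, 4.03 to 14.2 and 7.43 to 61.8 CPM for T cells, and 0.749 to 1.98 and 4.81 to 28.3 CPM for neutrophils. None of the 6 macrophage markers passed, with sums of 292 to 750.4 and 495 to 1279 CPM. Orchiectomized replicate 2 had the highest B cell, macrophage and neutrophil sums and, after replicate 3, the next highest T cell sum, 46.7 CPM. Lower after orchiectomy were 2 of 5 skeletal muscle markers (sums 28.4 to 449.8 and 7.70 to 181 CPM), 1 of 4 adipocyte markers (657 to 1833 and 730.5 to 1409 CPM) and 1 of 3 brown fat markers (951 to 4107 and 820 to 1829 CPM). The smooth muscle, endothelial, fibroblast, mesothelial, Schwann cell and sympathetic neuron lists had 0 markers passing. The part of these cell types in the values of the members was not tested.

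The effect of DHT among orchiectomized mice was examined next, to ask what an androgen gives back. It shares the orchiectomized aortas with the comparison above, so an aorta that raises one set of estimates lowers the other. By edgeR, again 0 of 10 members passed at an unadjusted *P* under 0.01, which 9.72% of tested genes did, most of them lower with DHT (7.27% of tested genes). One member, *Egr2*, had an unadjusted *P* under 0.05, as 21.2% of tested genes did (13.9% lower). It averaged 6.02 ± 3.98 CPM without and 3.06 ± 0.577 CPM with DHT (SD, n = 5 each), a log2 fold change of -0.97 (95% interval -1.70 to -0.24, edgeR unadjusted *P* = 0.0125, adjusted *P* = 0.113). DESeq2 gave it an unadjusted *P* of 0.00958, and the exact two-sided permutation test on log2 CPM gave 0.0079, the smallest value that 5 against 5 mice allow. With limma voom, 0 of 10 members had an unadjusted *P* under 0.05. Across the other settings its unadjusted *P* ranged from 0.0079 to 0.0600, and leaving out 1 library at a time from 0.00751 to 0.0646. The groups did not overlap for *Egr2*, lower with DHT in 5 of 5 mice, as was the case for 4.34% of all tested genes. Without orchiectomized replicate 2 the groups still did not overlap, but the log2 fold change was -0.46 (edgeR unadjusted *P* = 0.0646).

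*Fos* and *Fosb* followed with log2 fold changes of -0.76 (95% interval -1.96 to 0.44) and -0.72 (-1.57 to 0.12). *Egr1* had -0.65 (-1.31 to 0.01, edgeR unadjusted *P* = 0.0541), *Nr4a1* -0.60 (-1.41 to 0.21) and *Junb* -0.59 (-1.25 to 0.07). *Ier2* had -0.28, and *Atf3*, *Dusp1* and *Jun* lay near -0.1, at -0.11, -0.11 and -0.09. *Jun* and *Dusp1* had intervals of -0.72 to 0.53 and -0.64 to 0.42, which reach down to 0.606-fold and 0.641-fold of the level without DHT. All 10 estimates were below 0, with a median of -0.59 (with limma voom 7 of 10 and -0.22), while 46.7% of all tested genes were above 0 and their median was -0.02.

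Without orchiectomized replicate 2, the median of the members was -0.09, and 3 of 10 estimates were above 0, against 50.9% of all tested genes. *Nr4a1* then had 0.01, *Junb* -0.08, *Ier2* -0.01, *Jun* 0.08 and *Atf3* 0.23. *Fos*, *Egr1*, *Egr2* and *Fosb* had estimates of -0.58, -0.48, -0.46 and -0.45, none of which passed. *Fos* depended more on orchiectomized replicate 5, without which its estimate was -0.27 (edgeR unadjusted *P* = 0.626). Marker levels differed here too. Smooth muscle sums (6 of 6 markers tested, of which 0 passed) were 9941 to 19524 CPM without and 18725 to 23430 CPM with DHT, endothelial sums (5 of 5, 3 lower) 784 to 1110 and 511 to 695 CPM, and mesothelial sums (4 of 4, all lower) 41.6 to 350.1 and 6.67 to 21.1 CPM. Fibroblast sums (5 of 5, 2 lower) were 2002 to 3039 and 1340 to 1926 CPM. T cell sums (6 of 7) were 7.43 to 61.8 and 4.02 to 7.28 CPM, B cell sums (5 of 5) 6.24 to 149 and 2.57 to 10.5 CPM, macrophage sums (6 of 6) 495 to 1279 and 270 to 528 CPM, and neutrophil sums (2 of 6) 4.81 to 28.3 and 1.80 to 11.3 CPM. By edgeR at an unadjusted *P* under 0.01, all 6 T cell, all 5 B cell, 3 of 6 macrophage and both neutrophil markers tested were lower with DHT. Skeletal muscle sums (5 of 5) were 7.70 to 181 and 60.4 to 346 CPM, with 2 markers higher. The part of these cell types in the values of *Egr2* and the other members was not tested.

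**Figure D2:**
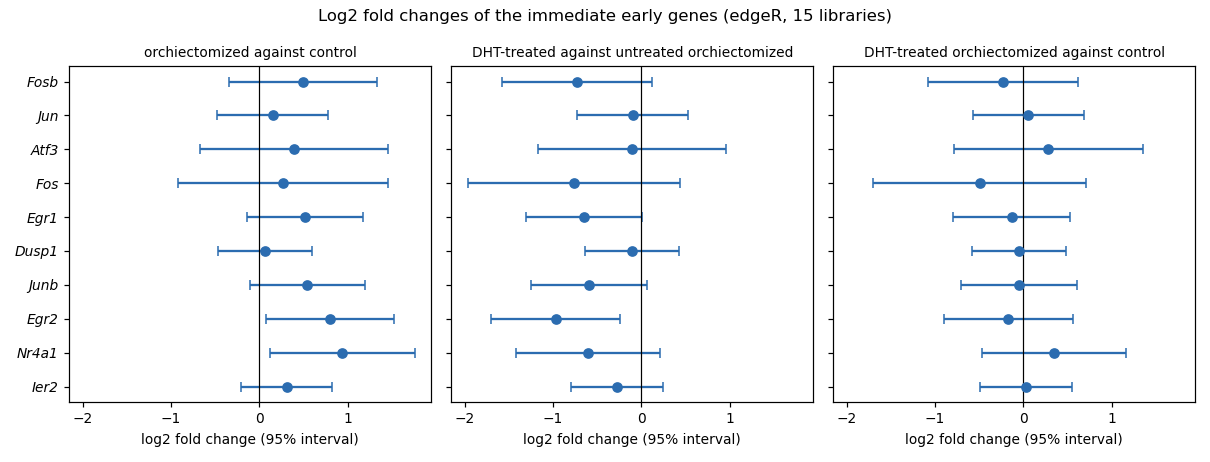
Log2 fold change (horizontal axes) of each gene with its 95% interval from edgeR, 1 panel per comparison, all 15 libraries. All 10 points are above 0 in the first panel and below 0 in the second, and the intervals that leave out 0 are those of *Egr2* and *Nr4a1* in the first panel and of *Egr2* in the second.

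**Figure D3:**
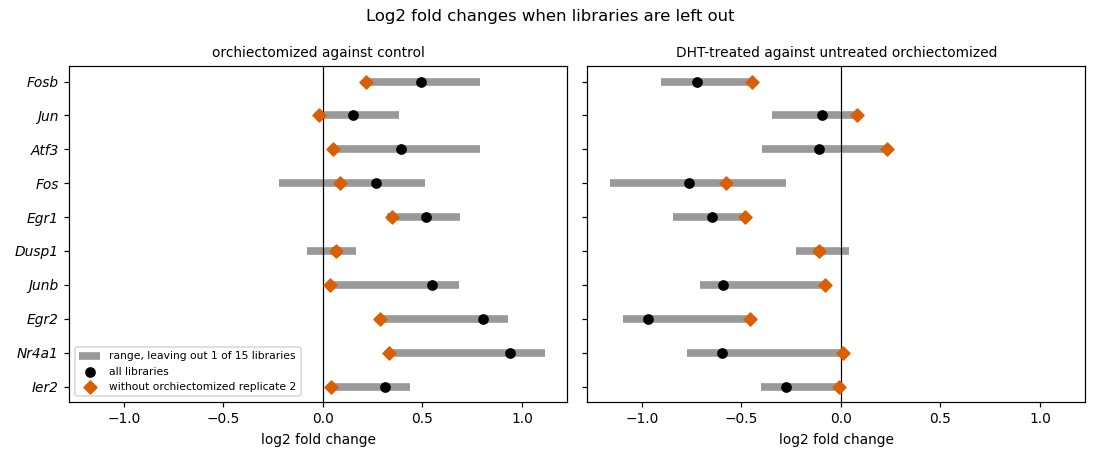
Log2 fold change (horizontal axes) with all libraries (black), the range when 1 of the 15 libraries was left out (grey) and the value without orchiectomized replicate 2 (orange). The orange points of *Junb*, *Ier2*, *Jun* and *Atf3* lie near 0 in the left panel, at 0.04, 0.04, -0.02 and 0.05, and that of *Nr4a1* lies at 0.01 in the right panel.

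The comparison of DHT-treated orchiectomized with sham-operated control mice asked whether androgen replacement gave back the state of control mice, and it does not use the orchiectomized aortas apart from the shared estimate of spread. By edgeR, 0 of 10 members had an unadjusted *P* under 0.01, which 3.53% of tested genes had, and 0 of 10 an unadjusted *P* under 0.05, which 11.8% had. DESeq2 and limma voom also gave 0 at either threshold. The estimates ran from -0.49 for *Fos* to 0.34 for *Nr4a1*, with a median of -0.04 and 4 of 10 above 0, against 49.5% of all tested genes. The intervals were narrowest for *Ier2* (-0.49 to 0.55) and *Dusp1* (-0.58 to 0.49) and widest for *Fos* (-1.70 to 0.71) and *Atf3* (-0.79 to 1.35). A difference of up to 1.47-fold higher for *Ier2* and 2.55-fold higher for *Atf3* is thus inside the intervals. *Nr4a1* averaged 64.7 ± 12.6 CPM in control and 82.1 ± 26.8 CPM in DHT-treated mice, and *Egr2* 3.44 ± 0.948 and 3.06 ± 0.577 CPM (SD, n = 5 each). By edgeR at an unadjusted *P* under 0.01, 3 of 5 endothelial, 2 of 5 fibroblast and 3 of 4 mesothelial markers were lower in DHT-treated than in control mice, and both neutrophil markers tested (of 6) were higher. Endothelial sums were 653 to 985 CPM in control and 511 to 695 CPM in DHT-treated mice, fibroblast sums 1926 to 2759 and 1340 to 1926 CPM, mesothelial sums 31.9 to 83.5 and 6.67 to 21.1 CPM, and neutrophil sums 0.749 to 1.98 and 1.80 to 11.3 CPM. In the other cell type lists 0 markers passed. The part of these cell types in the members' values was not tested.

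The spread between mice of a group was larger for the members than for the median gene. The biological coefficient of variation, the edgeR estimate of relative spread beyond counting error, was 0.598 for *Fos* and 0.537 for *Atf3*, against a median of 0.211 over all tested genes. It was 0.433 for *Fosb*, 0.415 for *Nr4a1*, 0.383 for *Egr2*, and from 0.329 to 0.342 for *Jun*, *Junb* and *Egr1*. *Dusp1* and *Ier2* had the smallest values, 0.281 and 0.273, still above those of 68.0% of tested genes. The group explained 36.5% of the sum of squares of log2 CPM for *Egr2* and 1.27% for *Dusp1*, with a median of 10.8% over the members and 18.8% over all tested genes. Refitted without orchiectomized replicate 2, these were 30.9% for *Egr2*, 0.991% for *Dusp1*, 2.93% over the members and 20.4% over all tested genes, and the coefficient of variation was 0.603 for *Fos*, 0.511 for *Atf3*, 0.267 for *Nr4a1*, 0.220 for *Egr2* and 0.190 for *Junb*, with a median of 0.188 over all tested genes. The mean log2 CPM of the 10 members was 5.39 ± 0.40 in control, 5.74 ± 0.63 in orchiectomized and 5.34 ± 0.39 in DHT-treated mice (SD, n = 5 each), and 5.50 ± 0.43 in the 4 orchiectomized mice other than replicate 2.

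After each group's mean was removed, most members varied together from aorta to aorta. Among the 45 pairs of members the median Pearson r over the 15 libraries was 0.63, the lowest 0.10 and the highest 0.94, and 31 pairs were above 0.5. Without orchiectomized replicate 2 the median was 0.52, 23 pairs were above 0.5, and the lowest were *Egr1* with *Nr4a1* (-0.09) and *Fos* with *Nr4a1* (0.0050). The libraries share the depth scaling, and 3 of the 15 degrees of freedom went to the group means, so these values are given as a description.

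Sets of genes can be seen in these pairs, and they were picked after the values were seen. *Fosb*, *Jun* and *Atf3* formed the closest set, with r of 0.94 for *Fosb* and *Atf3*, 0.91 for *Fosb* and *Jun*, and 0.89 for *Jun* and *Atf3*, and of 0.93, 0.89 and 0.88 without orchiectomized replicate 2. Control replicate 2, orchiectomized replicates 1 and 2, and DHT replicates 2 and 3 were above the mean of their group for all 3 genes. *Fos*, *Egr1* and *Dusp1* formed another set, with r of 0.93 for *Fos* and *Egr1*, 0.82 for *Fos* and *Dusp1*, and 0.72 for *Egr1* and *Dusp1*. In that set orchiectomized replicate 5 was high, an aorta with *Atf3* and *Jun* near the mean of their group. *Junb*, *Egr2* and *Nr4a1* had r of 0.82, 0.80 and 0.66, but these rested on orchiectomized replicate 2, and without it r was 0.41 for *Junb* and *Egr2*, 0.47 for *Junb* and *Nr4a1*, and 0.10 for *Egr2* and *Nr4a1*.

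**Figure D4:**
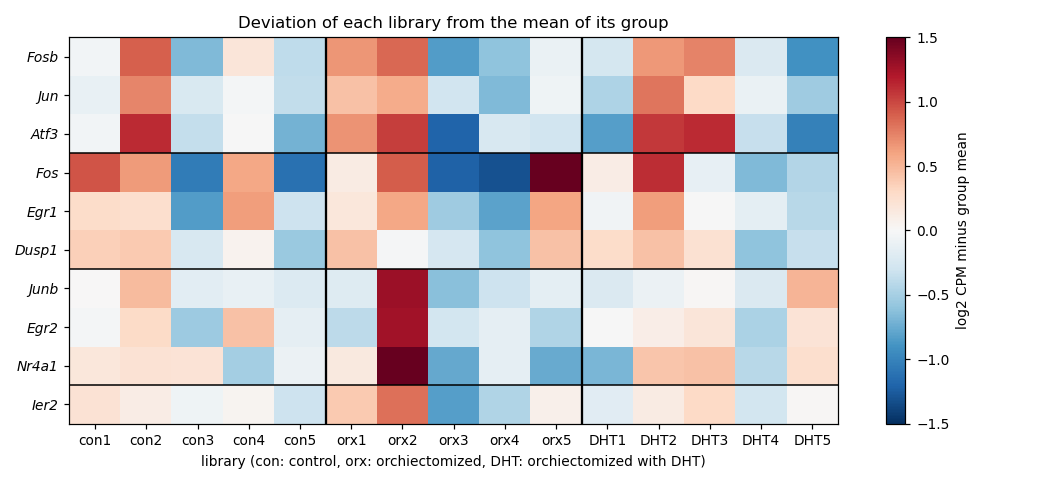
Log2 CPM minus the mean of the group (colour, saturated at 1.5) for each gene (rows) in each library (columns). *Fosb*, *Jun* and *Atf3* share high aortas in every group, and orchiectomized replicate 2 stands out for *Junb*, *Egr2* and *Nr4a1*.

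The mean log2 CPM of each list of cell type markers was set against the members in the same way. Over all 15 libraries, r with the endothelial markers was above 0 for *Nr4a1* (0.45), *Junb* (0.39), *Egr2* (0.23) and *Ier2* (0.08) and below 0 for the other 6, down to -0.63 for *Dusp1*. Over the 14 libraries without orchiectomized replicate 2 it was below 0 for all 10, from -0.04 for *Nr4a1* to -0.79 for *Dusp1*. With the B cell markers it was then also below 0 for all 10, from -0.09 for *Egr2* to -0.76 for *Dusp1*, while over all 15 libraries it ran from -0.60 for *Dusp1* to 0.48 for *Egr2*. With the smooth muscle markers, r over all 15 libraries ran from -0.69 for *Nr4a1*, -0.60 for *Junb* and -0.50 for *Egr2* to 0.48 for *Dusp1*, with 5 of 10 members above 0, and without that library 9 of 10 members were above 0, up to 0.73 for *Dusp1*. With the T cell markers r ran from -0.57 for *Dusp1* to 0.31 for *Egr2*, with *Nr4a1* at 0.05. Without that library it was below 0 for 9 of 10, *Nr4a1* (-0.30) among them, and 0.10 for *Egr2*. With the Schwann cell markers it ran from -0.11 for *Dusp1* to 0.66 for *Nr4a1*, and without that library from -0.24 for *Egr1* to 0.67 for *Nr4a1*. With mesothelial markers r ran from -0.01 for *Dusp1* to 0.61 for *Egr2*, and without that library from -0.22 for *Atf3* to 0.32 for *Egr1*. Brown fat markers gave -0.59 for *Egr2* to 0.07 for *Nr4a1* (-0.65 and 0.46 without it). Skeletal muscle markers gave 0.10 for *Jun* to 0.57 for *Fos*, and without it -0.29 for *Nr4a1* to 0.51 for *Fos*. Fibroblast, macrophage, neutrophil, erythroid, adipocyte and sympathetic neuron lists are not described here. CPM values of a library share 1 total, so that a larger share of one cell type lowers the values of others.

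Genes outside the list with the most similar pattern were ranked by r with the mean log2 CPM of the members after group means were removed (15 libraries). *Btg2*, an antiproliferative gene of early responses, was closest with an r of 0.98 (0.97 without orchiectomized replicate 2). *Trim27*, *H3f3b*, *Emid1*, *Zfp36*, *Arc*, *Spint2* and *Gm13375* followed, with r from 0.90 to 0.87 (0.82 to 0.89 without that library). *Btg2*, *Zfp36* and *Arc* belong to the list of other immediate early effectors, and the remaining 5 belong to none of the lists used here. All 8 were highest in orchiectomized replicate 2, as the mean of the members was.

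The wider immediate early program was followed in lists of related genes. Of the other AP-1 factors 9 of 10 were tested (*Fosl1*, with 2 to 21 counts, was not), and the sole one to pass at an unadjusted *P* under 0.01 in any comparison was *Jdp2*, a repressor of AP-1. It fell by 0.34 on the log2 scale with DHT against untreated orchiectomized mice (edgeR adjusted *P* = 0.0773). That is 1 of 9, where 7.27% of tested genes fell. Of the other immediate early transcription factors 12 of 13 were tested and 0 passed after orchiectomy. With DHT against untreated orchiectomized mice, 2 fell and 1 rose, where 7.27% of tested genes fell and 2.46% rose. *Myc* fell by 0.96 (edgeR adjusted *P* = 0.0364) and *Klf4*, a regulator of smooth muscle state, fell by 0.58 (adjusted *P* = 0.0668 by edgeR). *Npas4*, a factor known from calcium signals in neurons, rose by 0.82 (edgeR adjusted *P* = 0.0862). The EGR relative *Egr3* had log2 fold changes of 0.45 after orchiectomy and -0.48 with DHT and did not pass in either.

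Among other immediate early effectors 22 of 23 were tested, and 0 passed after orchiectomy. With DHT against untreated orchiectomized mice 1 of 22 passed, where 9.72% of tested genes did: *Gadd45b*, a stress gene of the GADD45 family, fell by 0.68 (edgeR adjusted *P* = 0.0722). In DHT-treated against control mice 2 of 22 rose, where 1.52% of tested genes did. *Gadd45g* of the same family rose by 0.86 and *Errfi1*, an inhibitor of EGF receptor signals, by 0.46 there (adjusted *P* = 0.225 and 0.282 by edgeR). All 14 MAP kinase feedback genes were tested, and the 2 that passed in any comparison were *Spry1* and *Spry2*, inhibitors of receptor tyrosine kinase signals. Both fell by 0.56 with DHT against untreated orchiectomized mice, with edgeR adjusted *P* values of 0.0783 and 0.0357, and 7.27% of tested genes fell in that comparison.

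All 20 upstream kinases and factors were tested. After orchiectomy *Mapk14*, the p38 MAP kinase, fell by 0.27. With DHT against untreated orchiectomized mice *Elk3*, a partner of SRF, fell by 0.32 and *Map2k7*, a JNK kinase, rose by 0.25, and *Rps6ka3* fell by 0.45 in DHT-treated against control mice. That is 1, 2 and 1 of 20 in the 3 comparisons, in which 3.22%, 9.72% and 3.53% of all tested genes passed, and none of these 4 had an edgeR adjusted *P* under 0.05. *Srf* itself averaged 164 ± 28.4, 175 ± 20.01 and 191 ± 9.49 CPM in control, orchiectomized and DHT-treated mice (SD, n = 5 each) and passed in no comparison.

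Heat shock genes, corticosteroid receptor targets and clock genes were set beside these. Of 8 heat shock genes 1 passed, *Hspb1*, which rose by 0.80 with DHT against untreated orchiectomized mice (edgeR adjusted *P* = 0.0684), a comparison in which 9.72% of tested genes passed. Of 8 corticosteroid receptor targets, 2 rose after orchiectomy, *Per1* by 1.01 and *Tsc22d3* by 0.66 (edgeR adjusted *P* = 0.131 and 0.308), where 2.08% of tested genes did. Another 2 rose with DHT against untreated orchiectomized mice, *Fkbp5* by 1.44 and *Zbtb16* by 1.04 (adjusted *P* = 0.00777 and 0.0432 by edgeR), where 2.46% of tested genes did. In DHT-treated against control mice 4 of the 8 rose (*Fkbp5*, *Zbtb16*, *Per1* and *Errfi1*), where 1.52% of tested genes did. *Errfi1* is also counted among the effectors and *Per1* among the clock genes. Of 14 clock genes 7 rose and 2 fell after orchiectomy, where 2.08% of tested genes rose and 1.13% fell. There 0 of the 14 had an edgeR adjusted *P* under 0.05. *Dbp* rose by 2.19, *Per3* by 0.99 and *Tef* by 0.72, and *Arntl* fell by 0.74 (adjusted *P* = 0.096, 0.131, 0.096 and 0.096 by edgeR). With DHT against untreated orchiectomized mice 1 clock gene fell, where 7.27% of tested genes did. In DHT-treated against control mice 5 rose and 1 fell, where 1.52% of tested genes rose and 2.01% fell. The part of the clock in the members' values was not tested.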

How the data were processed

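RNA-Seq was done on poly(A)-selected RNA of 15 aortas. For each library the authors deposited a table of raw counts, whole numbers of reads by gene symbol, which they did not normalize. Submitters' processing notes name STAR, Cufflinks, DESeq2 and mm10. The counting program, annotation and use of strand are not given in the sources used here. Reads without a gene (6.26% to 14.4% of counted reads) and reads matching more than 1 gene (1.34% to 1.97%) were left out. Groups and replicate numbers came from the labels. No pair of replicates agreed within counting noise.

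The tests were run with edgeR 4.0.16 under R 4.3.3: filterByExpr (minimum count 10, minimum total count 15), TMM, and 1 quasi-likelihood model of the 3 groups on all 15 libraries, tested on simulated data. A call was an unadjusted *P* under 0.01, the threshold of the study, and adjusted *P* values are Benjamini-Hochberg over all 14121 tested genes. Log2 CPM used a prior count of 3. Alternatives were DESeq2 1.42.0, RLE size factors, other filters, a robust fit, a replicate block, exact permutation and leaving out each library. Another was limma 3.58.1 voom with sample quality weights, under which libraries count unequally. A threshold of 0.05 was added after seeing the data. The members and gene lists were chosen with earlier results of these data known. All 10 members are named, with, per other list, at most 4 genes with an unadjusted *P* under 0.01 and the 8 genes most like the members. *Egr3* and *Srf* were added after their values were seen. Lengths and positions are from GENCODE M21, and promoters from RefSeq.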

Additional observations from a re-analysis of the deposited data

Results flagged for a closer look

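In groups of 5 mice, 1 library lay far from the other 4 in 7 of 30 sets (10 genes in 3 groups), where chance gives about 1 in 20, or 1.5 sets if values are normally distributed. The genes share libraries, so these sets are not independent. CPM values are skewed upward, and on log2 CPM, a scale chosen after seeing the data, only 2 of the 30 sets had such a library, orchiectomized replicate 2 for *Junb* and for *Egr2*. Of the 7, 3 were orchiectomized replicate 2, with *Junb* at 100.4 CPM (next highest of its group 37.0 CPM), *Egr2* at 13.1 CPM (next 4.81 CPM) and *Nr4a1* at 292 CPM (next 113.9 CPM). Another 3 were control replicate 2, with *Jun* at 366 CPM (next 217 CPM), *Atf3* at 91.3 CPM (next 41.6 CPM) and *Junb* at 43.5 CPM (next 31.5 CPM). The last was *Junb* in DHT replicate 5, at 43.2 CPM (next 30.6 CPM). In all 7 the distant library was the highest of its group.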

How the results depend on the processing

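The number of members called was 0 in each comparison under the planned settings, except for *Egr2* in DHT-treated against untreated orchiectomized mice, which made it 1 with DESeq2, with the exact permutation test and without orchiectomized replicate 1 or 5 (0 to 1 when 1 library was left out). At an unadjusted *P* under 0.05 the numbers were 2, 1 and 0. Without orchiectomized replicate 3 they were 4, 4 and 0 and without orchiectomized replicate 2 they were all 0. The first number was 0 without control replicate 5 and 1 without control replicate 1 or 3. The second was 2 when control replicate 3 or 4, orchiectomized replicate 4 or DHT replicate 2, 3 or 5 was left out. Of 270 log2 fold changes of members under other settings 263 kept their direction and side of the threshold, 2 passed it (*Egr2*) and 5 changed sign. All 5 came with voom and its quality weights. They were *Jun* 0.14, *Atf3* 0.22 and *Nr4a1* 0.15 with DHT against untreated orchiectomized mice, and *Egr1* 0.028 and *Dusp1* 0.038 in DHT-treated against control mice. The cause was not tested. Leaving out 1 library changed the sign of 36 of 450 values, in 14 of 30 results. After orchiectomy the ranges of these were -0.22 to 0.51 for *Fos*, -0.021 to 0.38 for *Jun* and -0.078 to 0.17 for *Dusp1*. With DHT against untreated orchiectomized mice they were -0.35 to 0.083 for *Jun*, -0.40 to 0.23 for *Atf3*, -0.77 to 0.012 for *Nr4a1* and -0.22 to 0.041 for *Dusp1*. In DHT-treated against control mice they were -0.44 to 0.066 for *Fosb*, -0.19 to 0.29 for *Jun*, -0.19 to 0.095 for *Junb*, -0.33 to 0.043 for *Egr1*, -0.056 to 0.091 for *Ier2*, -0.024 to 0.68 for *Atf3* and -0.16 to 0.077 for *Dusp1*. The median of the members with DHT against untreated orchiectomized mice ranged from -0.71 to -0.094, the latter without orchiectomized replicate 2. The values gave no sign that the replicate numbers paired the mice, but they cannot settle this. Of 15 same-numbered pairs, 5 had r above 0.1 in their deviations from the group means. The median of same-numbered pairs was 0.017 against 0.027 for other pairs, and 3 of 15 libraries matched their own number best. With the number as a replicate block, 0 members were called, *Egr2* had -0.82 with DHT, and the calls over all genes in that comparison were 7.61% against 9.72%. *Egr2*, with 17 to 148 reads, has the least depth.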
